A study of Homo sapiens with 10 samples.

Results

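The baseline transcriptome of a human B-cell lymphoma line, labelled U2392, was described in clones edited with a template that left the protein sequence of DDX3X wild-type. The set was chosen by genotype label alone and comprises the 6 samples with the condition DDX3X wild-type, out of 10 samples in the series. The cells were grown in RPMI medium with serum, and the labels name no drug. They had been electroporated with a plasmid for Cas9, a guide RNA and GFP, and with a double-stranded repair template of wild-type sequence that also held silent changes at the guide's PAM and at a new SpeI cutting site. GFP-positive cells were sorted and expanded from single cells, and colonies fully cut by SpeI were kept after sequencing of DDX3X. Poly(A) RNA was sequenced, so transcripts without a poly(A) tail are mostly lost. All 6 samples therefore share the line, the Cas9 exposure and the silent edits, and no unedited parental sample was used here. The labels do not say which replicates came from different clones, so the spread below mixes differences between clones and between cultures in proportions that cannot be told apart. Each sample is a bulk culture, in which fewer cells of a type and less RNA per cell cannot be told apart.

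B cells pass through stages that are known by their transcripts. Precursors assemble immunoglobulin genes with the RAG enzymes, germinal centre B cells mutate them under the repressor BCL6, and plasma cells secrete antibody under PRDM1 and XBP1. Diffuse large B-cell lymphomas are sorted by cell of origin into a germinal centre type and an activated type. The activated type is known for IRF4, for surface IgM and for signalling from the B-cell receptor through BCL10 and MALT1 to NF-kB.

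Depth ran from 18191556 to 35454145 counts per sample, and mitochondrial transcripts took 3.98% to 4.93% of the counts. TMM scaling factors lay between 0.973 and 1.02. Levels of a gene across samples are given as CPM, counts scaled to library size with TMM factors, and levels of different genes are compared only as TPM, which also divides by exon length. A floor of 3 counts corresponds to 0.0869 CPM in the deepest and 0.161 CPM in the shallowest sample. No 2 samples agreed within sampling noise, so each counted as 1 replicate. DDX3X itself, an RNA helicase of translation initiation, was at 548, 420.2, 436, 361, 402 and 366 CPM in replicates 1 to 6. Replicate 1 was the highest and replicate 4 the lowest, and since the edit changes no residue this level does not check the labels.

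The markers that define the line as a mature B-cell lymphoma were high in every sample. MS4A1, which encodes CD20 (chromosome 11, 60455752 to 60470760, plus strand, GRCh38), ranged from 954 TPM to 1418 TPM with a median of 1083 TPM, and was rank 53 of 19877 protein-coding genes by mean level. Replicates 3 and 5 were the highest and replicate 6 the lowest. CD79B, the signalling partner of the B-cell receptor (chromosome 17, 63928740 to 63932354, minus strand), ranged from 422 to 745 TPM (median 563), again highest in replicates 5 and 3 and lowest in replicate 1. It shares 288 exonic bases with an unnamed locus on the same strand, so some of its reads may be counted elsewhere. IRF4 and BCL6, usually regarded as drivers of opposing fates, were present together at 184 to 298 TPM and 179 to 285 TPM. With BCL2, described below, all 5 markers given for the line were detected in 6 of 6 samples.

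Of 19877 protein-coding genes, 10986 (55.3%) reached 1 TPM in all 6 samples, 3941 (19.8%) had no count in any sample, and 4950 lay between. The detected genes had a median of 27.5 TPM. The kappa light chain constant gene IGKC was the most abundant transcript of any kind at 21489 ± 2477 TPM (SD, n = 6), ahead of every mitochondrial gene. Among nuclear protein-coding genes the translation elongation factor EEF2 had the highest listed level at 5299 ± 672 TPM, and high levels were also found for the glycolytic enzyme GAPDH (3804 ± 227) and the actins ACTB (2982 ± 373) and ACTG1 (2910.3 ± 449). FTL, the ferritin light chain, RPS6, a ribosomal protein, and the chaperone HSP90AB1 lay between 2463 and 2585 TPM. GAPDH shares 422 exonic bases with an unnamed antisense locus that was itself listed at 10622 ± 673 TPM. It is not known here if reads were assigned by strand, so the reads of this pair may be mixed, and the order of EEF2 and GAPDH is uncertain.

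Other genes among the 12 most abundant were less general. PMAIP1, which encodes the pro-apoptotic BH3-only protein NOXA, was at 2419.9 ± 360.2 TPM. LMAN1, a cargo receptor that carries glycoproteins out of the endoplasmic reticulum, was at 2148 ± 327 TPM. LCP1, the leukocyte actin-bundling protein plastin, was at 2136 ± 241 TPM, and the ribosomal protein gene RPL8 was at 2101 ± 182. The differences between neighbours from HSP90AB1 to RPL8 were smaller than the SD of most of them.

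Genes of pan-B-cell identity were detected in 24 of 25 cases, with a median of 139 TPM, against 55.3% and a median of 4.84 TPM over all protein-coding genes. The same 55.3% and 4.84 TPM are the background for every list below. CD79A, the partner of CD79B in the receptor, was the highest at 1136 to 1637 TPM, then MS4A1 and CD79B. Next came the Fc receptor-like gene FCRLA (375 to 575 TPM), the transcription factor SPIB (235 to 429.6 TPM) and VPREB3 (123 to 384 TPM). TCF3 and the octamer coactivator POU2AF1 followed. CD22, a coreceptor, was at 179 to 271 TPM. PAX5, the commitment factor of the lineage, ranged from 167 to 222 TPM. EBF1 (21.5 to 39.3 TPM), BANK1 (13.2 to 17.3 TPM) and the complement receptor CR2 (7.47 to 11.9 TPM) were among the lowest members that still passed 1 TPM everywhere, with CD72 at 5.14 to 18.1 TPM.

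Precursor genes were mostly at or near 0. Of 12 early B-cell genes 1 was detected in all samples, LEF1, a WNT-responsive transcription factor of precursor and some mature lymphoid cells, at 39.1 to 66.3 TPM. RAG1 reached at most 0.676 TPM and the terminal transferase DNTT at most 0.287. ERG and the receptor KIT had no count in any sample, SOX4 had a mean of 0.0111 TPM, IL7R 0.0408 TPM and RAG2 0.0926 TPM.

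Germinal centre genes were detected in 19 of 20 cases, against 55.3% of all protein-coding genes, with a median of 130 TPM. MEF2B, a partner in BCL6 activation, was at 426 to 790.1 TPM, though it shares 1365 exonic bases with the read-through locus BORCS8-MEF2B. Behind it came the elongation factor ELL3 (418 to 483 TPM), the follicle-homing receptor CXCR5 (210.2 to 374 TPM), RGS13 (197 to 344 TPM), CD83 (195 to 308 TPM), BCL6, CXCR4 and GNA13. ELL3 and CXCR5 overlap exons of neighbouring genes on the opposite strand (3925 bases with BCL9L for CXCR5) and their levels are uncertain. P2RY8, a confinement receptor of the germinal centre, had no count in any sample, but it lies in a region with an annotated second copy, where reads matching both places may go uncounted.

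SERPINA9, an inhibitor of proteases in germinal centre cells, spanned more than 4-fold, from 19.99 CPM in replicate 1 to 97.2 CPM in replicate 5. MME, which encodes CD10, was highest in replicates 1 (210.2 CPM) and 4 (166 CPM) and at 70.2 to 99.1 CPM in the other 4.

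Plasma cell genes were detected in 18 of 18 cases, against 55.3% of all protein-coding genes, with a median of 74.8 TPM, over a wide range of levels. The highest members included the signal peptidase subunit SEC11C at 1118 to 1324 TPM, the J chain JCHAIN of secreted IgM at 750.0 to 1052 TPM, the chaperone HSP90B1 at 225 to 374 TPM and XBP1, the driver of endoplasmic reticulum expansion, at 215 to 307 TPM. TNFRSF17, the BCMA receptor, was at 444 to 753 TPM, TXNDC5 at 159 to 212, MZB1 at 89.6 to 182 and EAF2 at 89.4 to 129 TPM. PRDM1, the repressor that ends the B-cell programme, had the lowest mean of the list at 4.06 to 8.26 TPM, and SDC1, which encodes the plasma cell antigen CD138, was at 3.57 to 19.6 TPM. BACH2, which represses PRDM1, was at 22.3 to 31.3 TPM. XBP1 exceeded PRDM1 in every sample without overlap. Some other members of secretion and endoplasmic reticulum stress were low too. DERL3, of protein degradation from that compartment, was at 5.17 to 9.98 TPM. It shares 2923 exonic bases with SMARCB1 on the opposite strand, so its level is uncertain. The stress sensor ERN1, which splices XBP1, was at 6.16 to 10.8 TPM and CREB3L1 at 8.78 to 22.9 TPM. FKBP11 was higher, at 26.4 to 46.8 TPM. The DERL3 and ERN1 ranges overlapped that of PRDM1.

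Naive and memory genes were detected in 8 of 12 cases (66.7%), not far above the 55.3% of all protein-coding genes, with a median of 19.7 TPM. TCL1A, a coactivator of AKT in naive and germinal centre cells, led at 439.8 to 667 TPM, and CD27, a memory marker, followed at 194 to 304 TPM. IL4R was at 80.5 to 140.3 TPM and CD44 at 20.2 to 26.5 TPM, and FCRL5 was at 12.1 to 21.3 TPM. CD24 was near 0 with a mean of 0.0825 TPM, and near-identical copies of this gene can take its reads. Of the 9 members with a mean of at least 1 CPM, 4 spanned at least 4-fold among samples, against 6.26% of all such protein-coding genes. TNFRSF13C, CCR7 and CD1C were among them, each lowest in replicate 1. The BAFF receptor TNFRSF13C, for example, ran from 10.95 CPM in replicate 1 to 54.7 CPM in replicate 6.

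**Figure D1:**
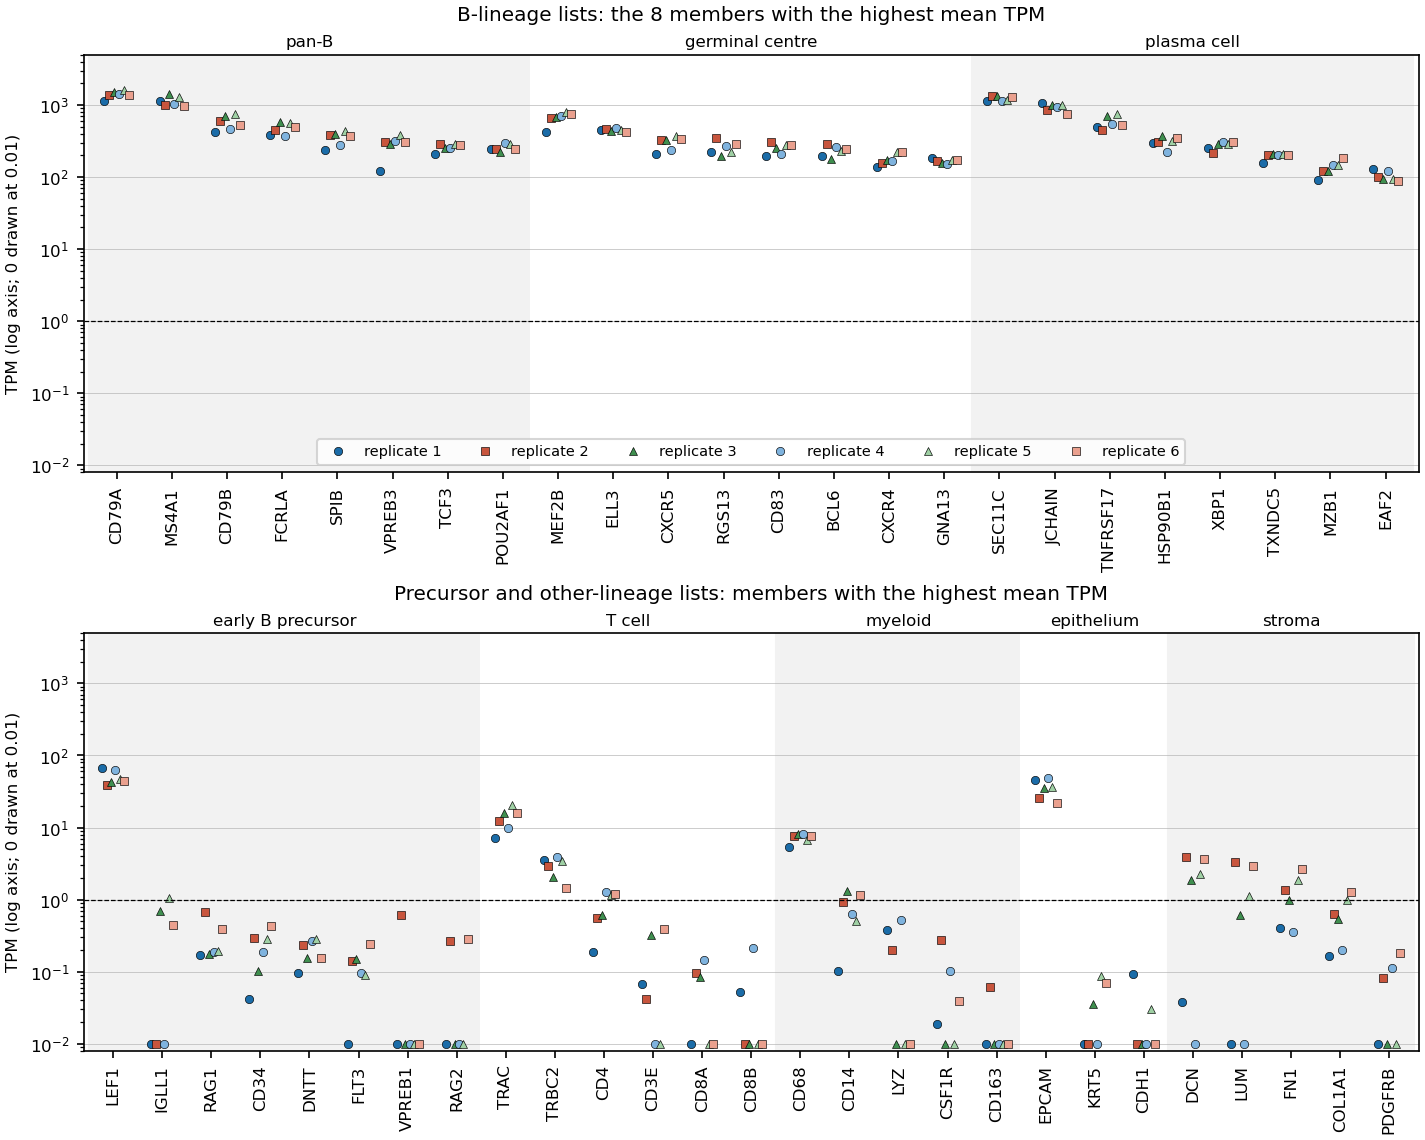
TPM of B-lineage markers (upper panel) and of the highest precursor, T-cell, myeloid, epithelial and stromal markers (lower panel) on a log axis, 1 point per wild-type sample, with a dashed line at 1 TPM and values of 0 drawn at 0.01. The 24 B-lineage genes of the upper panel lie at 89.4 TPM or above in every sample, while in the lower panel LEF1, TRAC, TRBC2, CD68 and EPCAM are the genes above 1 TPM in all 6.

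The 20-gene cell-of-origin assay used in diagnosis weighs 8 activated-type genes against 7 germinal centre-type genes, with 5 reference genes. No class was assigned, since the assay's own weights were not used here. All 8 activated-type genes were detected, with a median of 50.9 TPM. IRF4 led at 184 to 298 TPM and the kinase PIM2 followed at 174 to 244 TPM, and these ranges overlapped. TNFRSF13B, the TACI receptor, was at 59.7 to 91.96 TPM, CCDC50 at 51.3 to 79.03 TPM, the stress-response factor CREB3L2 at 28.7 to 45.00 TPM and RAB29 at 29.4 to 43.4 TPM. CYB5R2 (12.8 to 19.1 TPM) and LIMD1 (3.02 to 9.93 TPM) were the lowest, and LIMD1 overlaps an antisense gene over 1029 exonic bases.

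Of the 7 germinal centre-type genes 6 were detected, and the median of the list, 50.3 TPM, lay beside that of the activated-type genes. ASB13 was at 71.2 to 164 TPM, the inositol kinase ITPKB at 66.2 to 92.96 TPM, SERPINA9 at 25.9 to 133 TPM, MYBL1 at 39.9 to 63.8 TPM, the migration-inhibiting receptor S1PR2 at 35.1 to 74.96 TPM and MME at 24.8 to 72.5 TPM. MAML3, a Notch coactivator, was at most 0.296 TPM. The reference genes ran from WDR55 at 20.3 to 22.8 TPM to UBXN4 at 62.5 to 74.5 TPM. Genes of both types were thus present side by side in every sample, with IRF4 and PIM2 above all 7 germinal centre-type genes in each.

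**Figure D2:**
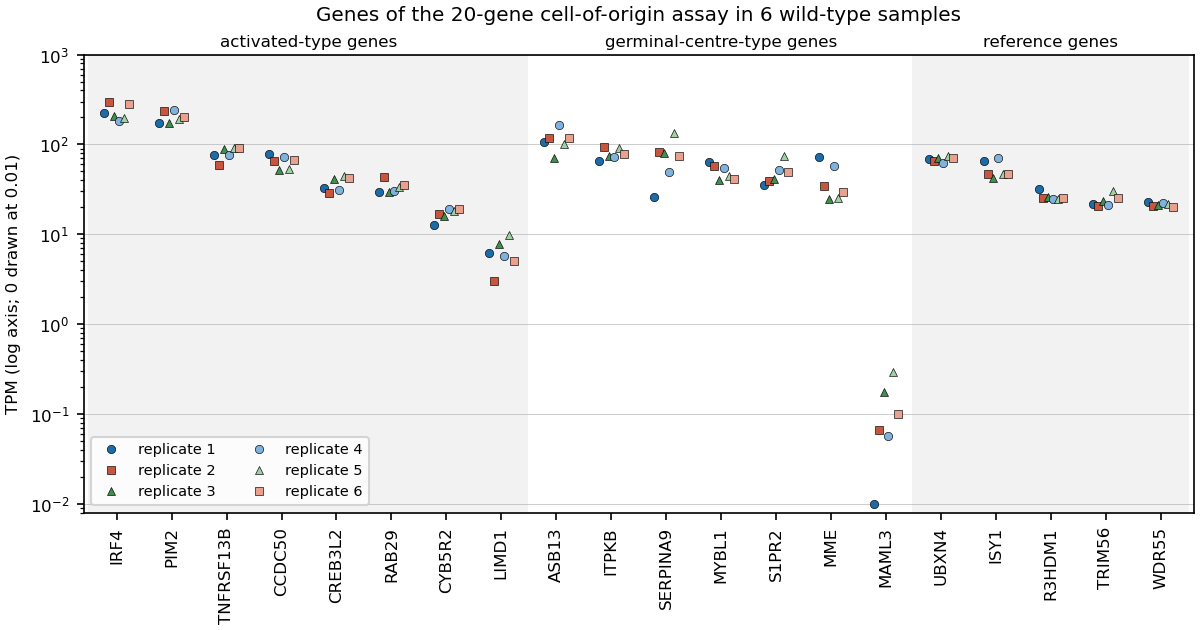
TPM on a log axis of the 20 genes of the cell-of-origin assay, 1 point per wild-type sample, grouped as activated-type, germinal-centre-type and reference genes, with 0 drawn at 0.01. IRF4 and PIM2 lie at 174 TPM or above in all 6 samples and MAML3 lies at 0.296 TPM or below.

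Further activated-type genes gave a mixed picture. Of 20 members 16 (80%) were detected, against 55.3% of all protein-coding genes, with a median of 28.1 TPM. BCL2A1, a BCL2 relative induced by NF-kB, was at 416 to 618 TPM and the kinase PIM1 at 162 to 278 TPM. PTPN1 (63.4 to 113 TPM), MALT1 (59.8 to 75.7 TPM), IL16, BATF (18.95 to 62.2 TPM), NFKBIZ (30.2 to 45.2 TPM) and SH3BP5 followed. STAT3 was at 22.6 to 47.00 TPM, highest in replicates 2 and 6. FOXP1 was at 7.91 to 10.1 TPM, or 87.7 to 112 CPM. Its TPM divides by 36714 exonic bases summed over all annotated transcripts, which can make the level look low. Of these bases 2539 are shared with an unnamed locus on the same strand, so the level is uncertain. CCND2 was near 0 with a mean of 0.02499 TPM, as was the cytokine IL6 with 0.0381 TPM. IL10, a cytokine of activated-type lines, was low and uneven, at 0.464, 5.29, 0.888, 1.65, 1.29 and 2.701 CPM in replicates 1 to 6, with replicates 2 and 6 highest.

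Genes from the B-cell receptor to NF-kB were all present. All 24 members were detected, with a median of 69.9 TPM, and none spanned 4-fold among the samples. Such a span was found in 6.26% of the 11828 protein-coding genes with a mean of at least 1 CPM, but in 1.56% of the 9268 nuclear ones with a mean of at least 10 CPM, the level of all 24 members, so a count of 0 is near the background. Among the receptor-near members, the kinase SYK was at 177 to 259 TPM, LYN at 106 to 126 TPM, BTK at 89.5 to 108 TPM, the adaptor BLNK at 83.4 to 167 TPM and the phospholipase PLCG2 at 127 to 194 TPM. Downstream, MALT1 (59.8 to 75.7 TPM) was above its partner BCL10 (14.4 to 17.9 TPM) in every sample with no overlap. The Toll-like receptor arm held IRAK1 at 117 to 153 TPM and MYD88 at 42.2 to 54.8 TPM. Of the NF-kB subunits RELB was the highest at 95.4 to 152 TPM, NFKB1 was at 67.1 to 92.9, NFKB2 at 60.1 to 96.3, REL at 47.5 to 78.7 and RELA at 44.3 to 53.9 TPM. REL overlaps an unnamed locus over 5702 exonic bases. The inhibitors TNFAIP3 (23.9 to 36.4 TPM), NFKBIA (34.3 to 63.7 TPM) and TRAF3 (42.2 to 48.2 TPM) were expressed as well.

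The line carried an IgM kappa transcript profile. Among heavy chain constant genes, IGHM held 98.9%, 99.7%, 99.3%, 98.8%, 99.3% and 99.6% of the counts in replicates 1 to 6, a mean of 99.2% ± 0.36 (SD, n = 6), over 21464 to 35998 counts per sample. The widest Wilson 95% interval, in replicate 1, was 98.71% to 98.99%. Such intervals and the floors for counts of 0 cover counting error only. IGHD, co-expressed with IGHM in naive B cells, took 0.0851% to 0.379%, IGHG3 0.0444% to 0.485%, IGHG1 0.0194% to 0.405% and IGHA1 0.0446% to 0.283%. IGHG2, IGHG4 and IGHA2 held at most 2, 4 and 5 counts in any sample. IGHE had none, which allows a share of up to 0.00833% to 0.0140% depending on depth. The small IGHG3 and IGHG1 shares were highest in replicates 1 and 4.

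Light chain transcripts came mostly from the kappa locus. IGKC held 96.2%, 97.2%, 97.2%, 95.8%, 96.9% and 96.5% of the light chain constant counts in replicates 1 to 6 (mean 96.6% ± 0.55, SD, n = 6), over 65104 to 118994 counts. IGLC1 made up nearly all of the rest, at 2.72% to 4.08%. All 460 exonic bases of IGLC1 also belong to IGLL5 on the same strand, which held 3347 to 6811 counts of its own, so the lambda counts are uncertain. With IGLL5 counted as lambda the IGKC share was 89.4% to 92.8%, with a mean of 91.4%. IGLC2 and IGLC3 were each below 0.1% and IGLC7 had no count, which allows up to 0.00252% to 0.00461%.

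**Figure D3:**
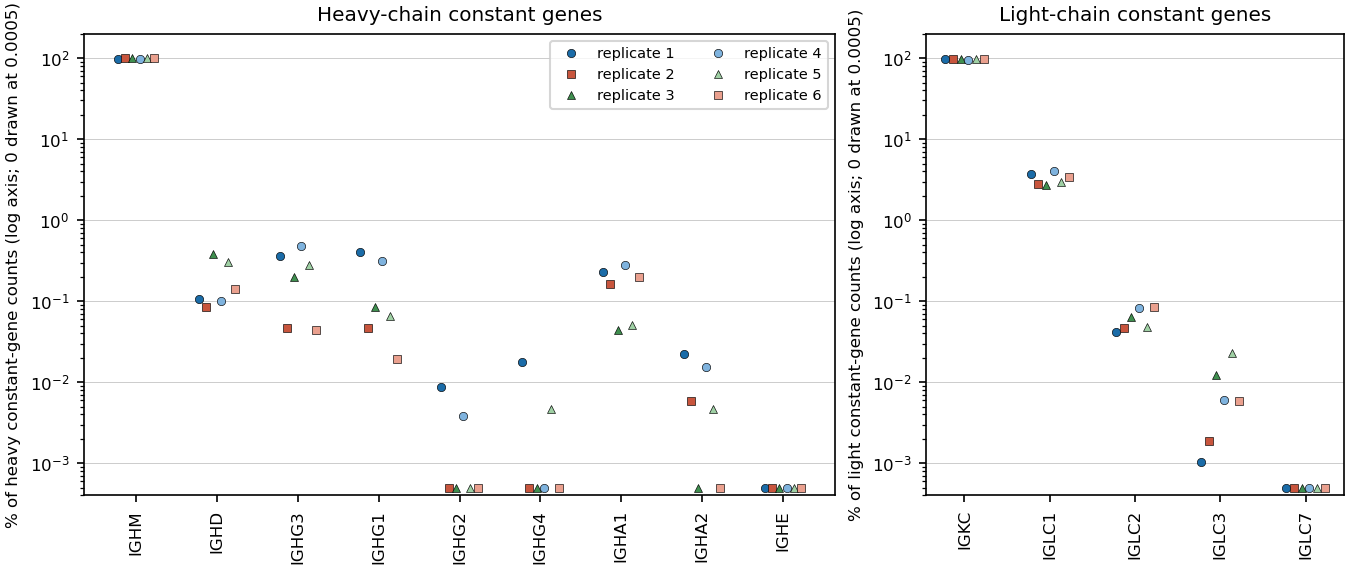
Share of heavy chain (left) and light chain (right) constant-gene counts held by each gene, in percent on a log axis, 1 point per wild-type sample, with 0 drawn at 0.0005. IGHM lies at 98.8% or above and IGKC at 95.8% or above in all 6 samples, and IGHE and IGLC7 are at 0.

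A rearranged B-cell clone reads out chiefly a single variable and a single joining segment per chain, and the counts over the kappa locus had that shape. IGKV3-20 held 81.7% to 88.4% of the kappa variable counts (3563 to 7072 per sample), and IGKJ1 held 88.3% to 92.8% of the kappa joining counts (1922 to 3481). The next variable segments were IGKV3-7 with 5.05% to 12.1% and IGKV4-1 with 1.66% to 2.602%.

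The other loci gave fewer counts. Heavy chain variable segments held only 50 to 424 counts per sample, far fewer than IGHM, and no heavy chain joining segment had a count. IGHV4-39 led with 34.3% to 87.7% of them, followed by IGHV4-80 and IGHV7-81 by summed counts. Shares of so few counts are imprecise, and IGHV4-39 held 372 counts in replicate 1 against 26 to 54 in the others. Of the lambda variable counts (354 to 662 per sample) IGLV6-57 held 53.8% to 62.7%, IGLV5-52 11.6% to 17.6% and IGLVI-56 2.71% to 8.71%. A single joining segment led at the lambda locus too, as IGLJ1 held 92.4% to 98.4% of its joining counts (147 to 248). No count fell on 116 of 126 heavy, 45 of 76 kappa and 54 of 73 lambda variable segments.

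Among the lymphoma oncogenes BCL2, the inhibitor of mitochondrial apoptosis, was the highest of the 28 listed. Of these 23 (82.1%) were detected, against 55.3% of all protein-coding genes, with a median of 28.7 TPM. BCL2 (chromosome 18, 63123346 to 63320128, minus strand) stood at 1169.7, 1298, 1506, 1371, 1698 and 1864 CPM in replicates 1 to 6, highest in replicate 6 and lowest in replicate 1. In TPM it ranged from 330.0 to 537, above BCL6 and IRF4 in every sample. BCL6 (chromosome 3, 187721377 to 187745727, minus strand) stood at 354, 505, 320.2, 467, 387 and 432 CPM. IRF4 (chromosome 6, 391739 to 411447, plus strand) stood at 396, 524, 365, 329.6, 330.3 and 487 CPM, highest in replicates 2 and 6. The TPM ranges of BCL6 and IRF4 overlapped almost fully, so these neighbours were not separated by their spread.

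MYC, the growth-promoting transcription factor, was low. It stood at 17.8, 23.9, 11.1, 19.2, 13.3 and 15.1 CPM in replicates 1 to 6, with a TPM range of 12.3 to 26.7 and rank 6732 among protein-coding genes. Replicate 2 was highest and replicate 3 lowest. MYC lay below BCL6, IRF4 and BCL2 in every sample without overlap, and below the median of the detected genes, 27.5 TPM. Of its relatives, MYCN had no count and MYCL reached at most 1.02 TPM. Of the cyclins D, CCND3 was at 38.2 to 54.8 TPM, CCND1 at 0.481 to 3.22 TPM and CCND2 near 0.

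Tumour suppressors were expressed as transcripts. CDKN2A was at 85.4 to 131 TPM, RB1 at 24.2 to 32.98 TPM and B2M, the light chain of HLA class I, at 87.2 to 113 TPM. The methyltransferase EZH2 was at 134 to 159 TPM. Of the 25 listed oncogenes and tumour suppressors with a mean of at least 1 CPM, 3 spanned more than 4-fold (CDKN2B, TP63 and CCND1). The share over all such protein-coding genes was 6.26%. CDKN2B was highest in replicate 4 (25.4 CPM) and lowest in replicate 3 (5.38 CPM). A transcript level says nothing of mutations in these genes.

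In the BCL2 family, 15 of 16 members were detected with a median of 76.0 TPM. PMAIP1 and MCL1, a partner pair of killer and protector, were the highest at 2111 to 3067 TPM and 1914 to 2211 TPM. BCL2A1 at 416 to 618 TPM and BCL2 at 330.0 to 537 TPM came next, with overlapping ranges, and BIK was at 129 to 362 TPM. BCL2L1, which encodes BCL-XL, was at 129 to 156 TPM, BAX at 82.3 to 112 TPM and BCL2L11, which encodes BIM, at 66.7 to 91.7 TPM. BAK1 was at 26.4 to 31.1 TPM and BOK at most 0.457 TPM. BBC3, which encodes PUMA, spanned 4.17-fold, from 6.35 CPM in replicate 1 to 26.6 CPM in replicate 4.

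Several of the most abundant genes lie side by side on chromosome 18, a stretch picked out after the values were seen. Between TCF4 and VPS4B (55222331 to 63422483) 23 of 31 protein-coding genes had a mean of at least 1 CPM, with a median of 152 TPM, and 14 of the 23 (60.9%) reached 100 TPM. Over all nuclear protein-coding genes with at least 1 CPM the median was 24.2 TPM and 13.6% reached 100 TPM. In the flank before TCF4, 32 genes had a median of 38.5 TPM and 21.9% reached 100 TPM. In the flank after VPS4B (63476761 to 72868146) 1 of 22 genes, RTTN, had a mean of at least 1 CPM, SOCS6 reached 2.22 CPM in its highest sample at a mean of 0.966, and 18 were under 0.2 CPM in every sample. That flank is rich in SERPINB genes, several of them known from squamous epithelium. It also holds TMX3, a disulphide isomerase of the endoplasmic reticulum, which had no count in any sample. The stretch holds PMAIP1, LMAN1, SEC11C (1224 ± 91.4 TPM), NARS1, BCL2, VPS4B, TXNL1, PHLPP1, TCF4 and MALT1. DNA copy number was not measured, and its part in the levels of the stretch and of its flanks was not tested.

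Surface antigens were detected in 28 of 34 cases (82.4%), against 55.3% of all protein-coding genes, with a median of 56.1 TPM. CD74, the invariant chain of HLA class II, was the highest at 1059 to 2036 TPM, followed by MS4A1, TNFRSF17, CD79B, CD52 (279 to 447 TPM), CXCR5, CD22 and CXCR4 (136 to 224 TPM). CD37 was at 107 to 249.5 TPM and CD38 at 65.5 to 102 TPM. Class II itself was low beside its chaperone, with HLA-DRA at 44.9 to 77.5 TPM and HLA-DRB1 at 7.45 to 16.9 TPM, although reads of the highly polymorphic HLA-DRB1 may fail to align. Class I genes HLA-C (46.3 to 52.04 TPM) and HLA-B (28.3 to 43.5 TPM) were of middling level. The checkpoint ligand CD274 was at 1.08 to 2.89 TPM and PDCD1LG2 at most 0.447 TPM. CD5, a T-cell and B-1 antigen, had no count, and CD200 and ROR1 had means of 0.0737 and 0.0119 TPM.

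Of the 30 surface antigens with a mean of at least 1 CPM, 4 spanned more than 4-fold, among them CD70, TNFRSF8 and S1PR1. Such a span was found in 6.26% of all 11828 protein-coding genes at that level, and the difference was not tested. CD70, the ligand of CD27, stood at 30.3, 80.8, 5.14, 60.8, 8.44 and 75.3 CPM in replicates 1 to 6 and was lowest in replicates 3 and 5, a 15.6-fold range. TNFRSF8, which encodes CD30, stood at 44.2, 8.93, 12.5, 39.8, 10.4 and 9.88 CPM, high in replicates 1 and 4. S1PR1, the receptor for exit from lymphoid tissue, stood at 1.85, 0.4201, 5.94, 0.888, 5.11 and 0.861 CPM, high in replicates 3 and 5. These antigens thus differed among samples of the same genotype, though not along a common division of the samples, while MS4A1, CD79B, CD22, CD38 and CD52 stayed within a 1.67-fold range.

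Markers of other cell types were at or near 0 with few exceptions. T-cell markers summed to 3.45 to 7.96 CPM over 12 genes, mostly TRAC (2.09 to 5.699 CPM), and CD3D, CD3G and TRBC1 had no count. Natural killer markers summed to 0.748 to 10.8 CPM over 7 genes, with GNLY and FCGR3A at 0, and NCAM1 made up nearly all of the upper end, at 8.403 and 10.4 CPM in replicates 2 and 6 against at most 1.94 CPM elsewhere. Myeloid markers summed to 3.88 to 6.17 CPM over 10 genes, mostly CD68, with FCN1, MPO, S100A8 and S100A9 at 0. Endothelial markers summed to 0.385 to 4.35 CPM over 5 genes, all but PECAM1 at or near 0, and erythroid markers to at most 0.699 CPM over 5.

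Epithelial markers summed to 16.6 to 37.6 CPM over 6 genes. EPCAM, an adhesion protein of epithelia, supplied nearly all of it at 16.5 to 37.6 CPM (22.2 to 49.1 TPM), while KRT18 and KRT19 had no count and CDH1 and KRT8 had means of 0.0207 and 0.0171 TPM. Stromal markers summed to 2.78 to 34.3 CPM over 8 genes. DCN, LUM, FN1 and COL1A1 supplied them, all lowest in replicates 1 and 4, whereas COL1A2 had no count and COL3A1 a mean of 0.00287 TPM.

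Proliferation genes were detected in 12 of 12 cases with a median of 249 TPM. PCNA, the sliding clamp of DNA polymerase, led at 1154 to 1515 TPM, followed by TYMS, MCM2 (345 to 513 TPM), TOP2A (283 to 441 TPM), CCNA2, CCNB1, RRM2 and MCM6. MKI67, the antigen Ki-67, stood at 988, 279, 339, 505, 289.9 and 278 CPM in replicates 1 to 6, and CDK1 at 313, 128, 135, 203, 101 and 101 CPM. Both were highest in replicates 1 and 4. They lie on the long arm of chromosome 10, where these were the highest 2 samples for 265 of 279 genes (95%). Replicate 1 was the highest sample for 8 of the 12 genes. The share of all genes highest there was not counted, so the 8 do not set proliferation genes apart. Among the 8 were the mitotic cyclin CCNB1, at 264 CPM in replicate 1 and 163 to 242 in the others, and CCNA2 (332 against 214 to 287 CPM). The checkpoint kinase BUB1 (105 against 64.7 to 84.5 CPM) and the mitotic kinase AURKA (125 against 75.7 to 106 CPM) were others. Replicate 4 did not share this order, since TOP2A and AURKA were lowest there, while MCM2 and MCM6 were highest. PCNA was lower in replicate 1 than in replicates 2 to 5.

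Spread among the samples was small for most genes. Over the 11828 protein-coding genes with a mean of at least 1 CPM the median SD of log2 CPM was 0.21 (quartiles 0.15 and 0.35), and the common biological coefficient of variation was 0.264. The steadiest genes with at least 100 CPM were CHD1L, a chromatin remodeller, at 218 to 227 CPM, RFC1, a clamp loader, at 206 to 219 CPM, SMARCC2 at 138 to 147 CPM, RAB35 at 102 to 109 CPM and EIF4H at 201 to 217 CPM. A range of at least 4-fold was found in 741 genes, which is the 6.26% above. They were mostly of low level, with 596 of 2547 genes at 1 to 10 CPM, 136 of 6908 at 10 to 100 CPM and 9 of 2373 at 100 CPM or more. Of the 188 genes of the lists that had at least 1 CPM, 24 (12.8%) spanned 4-fold.

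The largest spreads were between presence and absence. KDM5B, a demethylase of histone H3 lysine 4, stood at 34.3, 0, 0.608, 42.6, 1.02 and 0.178 CPM in replicates 1 to 6, high in replicates 1 and 4 alone. CECR2, a bromodomain protein of chromatin remodelling, stood at 24.3, 0.07002, 0.0467, 19.8, 0.753 and 0.267 CPM with the same division. ABCB1, the drug efflux pump P-glycoprotein, stood at 8.79 and 11.3 CPM in replicates 3 and 5 and had no count in the other 4. DCN, the proteoglycan decorin, stood at 0.145, 14.9, 7.29, 0, 8.28 and 13.98 CPM, near 0 in replicates 1 and 4. SERPINB6, an intracellular protease inhibitor, was at 0.1402 and 0.323 CPM in replicates 3 and 5 and at 23.3 to 54.6 CPM in the others.

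The 20 genes with the largest SD also held ATF7IP2 (highest of all, SD 4.31 in log2 CPM), CTDSPL, ADGRE5, ZFP3, POGLUT3, PTPRT and RAB34, all highest in replicates 1 and 4. ROBO2, an axon guidance receptor, MYEF2, C14orf132 and ZNF287 were highest in replicates 2 and 6. EXOC6B, an exocyst subunit, and RTL8A were highest in replicates 3 and 5. POMGNT2 was at 0 CPM in replicates 2 and 6 and present in the other 4, and PPP1R26 was near 0 in replicates 3 and 5 alone. In each of these genes the high samples fell in whole pairs, 1 with 4, 2 with 6 or 3 with 5.

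**Figure D4:**
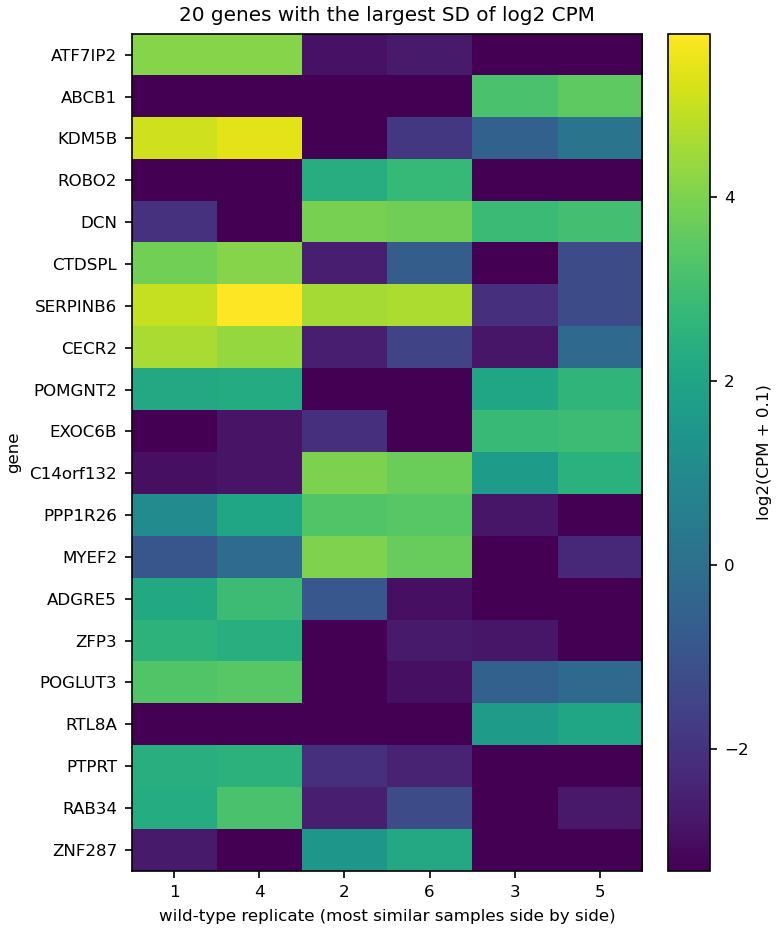
Heat map of log2(CPM + 0.1) for the 20 genes with the largest SD of log2 CPM (rows, largest SD at the top) in the 6 wild-type samples (columns, most similar samples side by side). Columns 1 and 4, 2 and 6, and 3 and 5 are high or low together, and dark cells are samples at or near 0 counts.

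The promoters of 2 of these genes, KDM5B and CECR2, are printed because the pair shares a pattern across samples and differs in base composition. Both are from RefSeq on GRCh38.p14, with 250 bases before and 50 after a transcript start, 5′ to 3′ on the gene's strand, at chr1:202808372-202808671 (KDM5B, minus) and chr22:17359699-17359998 (CECR2, plus). Capitals mark the dinucleotide CG, which reads the same on both strands.
KDM5B: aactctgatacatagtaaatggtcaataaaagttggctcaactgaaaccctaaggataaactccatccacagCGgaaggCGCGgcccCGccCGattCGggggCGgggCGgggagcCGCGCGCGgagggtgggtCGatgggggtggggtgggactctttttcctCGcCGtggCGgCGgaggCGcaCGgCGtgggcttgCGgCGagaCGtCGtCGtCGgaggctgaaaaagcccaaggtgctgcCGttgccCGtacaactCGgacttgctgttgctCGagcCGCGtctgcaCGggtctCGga
CECR2: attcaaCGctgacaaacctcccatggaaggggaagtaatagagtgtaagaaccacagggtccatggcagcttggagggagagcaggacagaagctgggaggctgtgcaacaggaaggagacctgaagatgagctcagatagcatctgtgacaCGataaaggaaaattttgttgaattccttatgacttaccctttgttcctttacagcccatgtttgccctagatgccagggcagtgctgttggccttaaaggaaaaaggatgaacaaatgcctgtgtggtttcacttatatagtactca
KDM5B has 34 CG dinucleotides in this window and CECR2 has 2, against a median of 14 over 35116 RefSeq promoters of the same length, of which 15.6% hold at least 34 and 89% at least 2. The KDM5B window lies inside the span of the gene in GENCODE release 29, whose start is further upstream. Promoter sequence was found for 13 of the 20 genes. DNA methylation was not measured.

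Similarity over all 11828 genes, the most variable ones included, followed the same pairing. The correlation of log2 CPM across genes, which are not independent replicates, was 0.9782 for replicates 1 and 4, 0.9876 for 2 and 6 and 0.9877 for 3 and 5, and 0.9282 to 0.9664 for the other 12 pairs. Genes at least 4-fold apart numbered 61, 34 and 27 in those pairs and 143 to 368 in the other 12. The labels do not say whether paired samples share a clone, and nothing was averaged or tested by pair.

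Genes that were either on or off in each sample were listed with thresholds added after seeing the data, every sample being at 1 CPM or more or under 0.2 CPM. They numbered 54 of 12319 genes (0.438%) and took 12 of 62 possible patterns. In 45 of the 54 both members of each close pair were alike. The pairs were picked by correlation in these same samples, so this count is a description and no separate support for the pairing. The largest set, 15 genes, was off in replicates 1 and 4 alone, and held the growth factors IGF1 and CSF1, DCN, ABI3BP and the protocadherins PCDHB2, PCDHB4 and PCDHB15. Another 9 were on in replicates 1 and 4 alone, including the fibroblast growth factor FGF9, the metalloproteinase MMP16 and the coreceptor NRP2. A set of 7 was off in replicates 2 and 6 alone, 6 were on there alone, including the hormone precursor POMC and the guidance ligand SEMA3A, and 5 were on in replicates 3 and 5 alone, including ABCB1 and SEMA3C.

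Some of the spread was regional. For each of 41 chromosome arms the median deviation of its genes from the 6-sample mean was taken, over 10287 genes with a mean of at least 5 CPM. The median range over arms was 0.11 in log2 CPM, and 3 arms exceeded 0.3. The long arm of chromosome 10 deviated by 0.66, -0.29, -0.28, 0.58, -0.34 and -0.32 in replicates 1 to 6, over 279 genes. The long arm of chromosome 21 had a range of 0.59 and that of chromosome 3 a range of 0.34, with replicates 1 and 4 again highest in both.

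The shift involved many genes of these arms. Replicates 1 and 4 were the highest 2 samples for 265 of 279 genes (95%) on 10q, 75 of 93 (80.6%) on 21q and 151 of 319 (47.3%) on 3q, against 1654 of 10287 (16.1%) over all arms and 1163 of 9596 (12.1%) on the arms other than these. The arms were picked by the same values, so these counts are a description. All 8 genes of the lists that lie on 10q were among them, including BLNK, CDK1, ENTPD1, FAS, MKI67, NFKB2 and PIK3AP1. On 3q it was 10 of 13, including MME, CD80, CD86 and CD47 but not BCL6. Single genes spanned more than their arm medians. A median over many genes varies less than a single gene, so the ranges below do not set MME or MKI67 apart. On 3q, whose arm medians spanned 0.34 (log2), MME spanned 1.58. On 10q MKI67 spanned 1.83, and it was at 988 CPM in replicate 1 against 505 in replicate 4, while the arm deviated by 0.66 and 0.58 in these samples. The part of the arm in the MKI67, CDK1 and MME values was not tested.

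**Figure D5:**
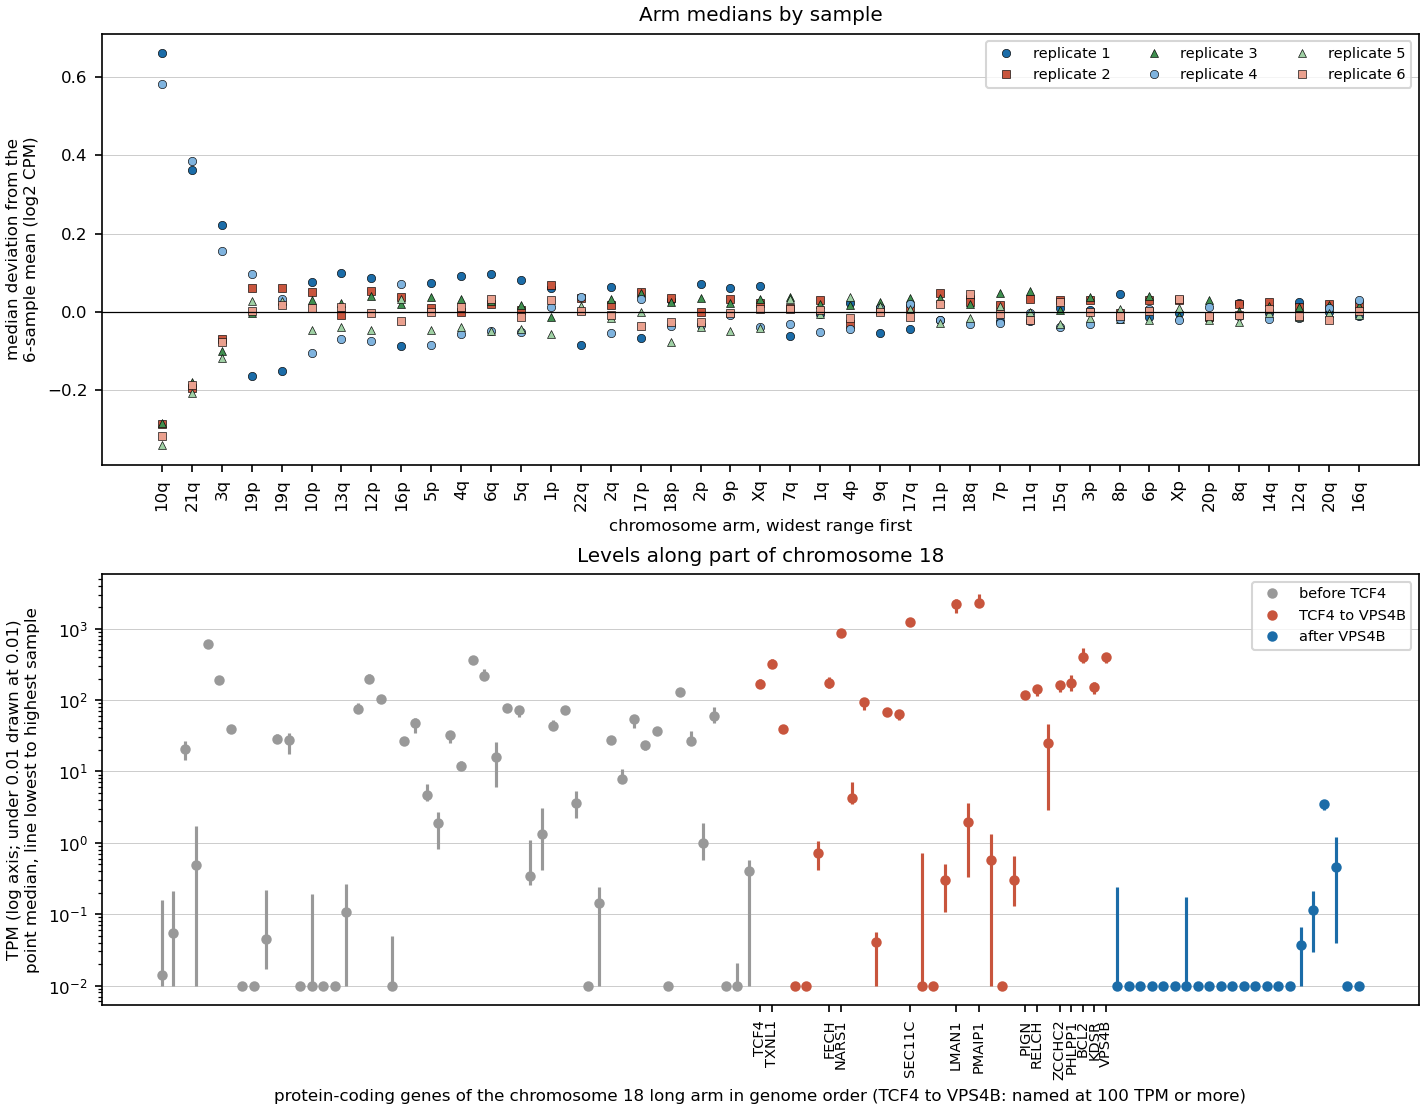
Upper panel, median deviation of each chromosome arm's genes from the 6-sample mean (log2 CPM), 1 point per wild-type sample, arms ordered by range, where replicates 1 and 4 lie above the others on 10q, 21q and 3q. Lower panel, TPM on a log axis of protein-coding genes in order along part of chromosome 18 (point, median; line, lowest to highest sample; values under 0.01 drawn at 0.01), where 14 genes from TCF4 to VPS4B reach 100 TPM and those after VPS4B are mostly near 0.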

How the data were processed

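The authors deposited a table of raw read counts per gene for 10 samples, not normalized, of which the 6 columns of the DDX3X wild-type group were used. Trimming with cutadapt 1.10, alignment with STAR 2.6.0c and counting with featureCounts are recorded per the submitters' processing notes. The build, the annotation and whether strand was used in counting are not given in these sources, so reads of overlapping genes cannot be told apart. All 58721 gene IDs occur in GENCODE release 29 (GRCh38), which supplied coordinates, types and exon lengths, and 58252 had a current symbol. No column belonged to an unlisted sample.

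TMM factors came from edgeR 4.0.16 (R 4.3.3) over these 6 samples alone. CPM, TPM and log2 CPM (prior count 1) were computed from the counts. With 1 group there was no test between groups. Samples lying apart within the group were called by Dixon's gap ratio. Detected means at least 1 TPM in all 6 samples, and variable means a highest sample at least 4 times the lowest on the log2 CPM scale, at a mean of 1 CPM or more. Depth limits low genes to the floor of 3 counts. Shares carry Wilson 95% intervals. Overlaps were counted with bedtools 2.31.1.

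The genes named were MS4A1, CD79B, IRF4, BCL2, BCL6, MYC, DDX3X, the cell-of-origin genes, up to 8 members of each other list with the highest TPM and those under 0.1 TPM, the 12 most abundant, 20 most variable and 5 steadiest genes, and the leading immunoglobulin genes. Some genes and a sequence within this rule are not reported here. Further names were chosen after their values were seen. Members and the 21 lists (258 genes) were chosen with earlier results of these data known. Alternatives were other scaling factors, other thresholds and filters, and leaving out each sample.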

Additional observations from a re-analysis of the deposited data

Results flagged for a closer look

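In 12 of 212 values examined (5.66%), 1 of the 6 samples lay apart from the others by Dixon's gap ratio, at its 95% critical value. Chance alone gives about 1 in 20. Of the 12, 8 were in replicate 1, the deepest library.

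In replicate 1 the highest sample was far above the rest for MKI67 at 988.4 CPM (others 278.3 to 505.4), for the ubiquitin ligase MDM2 at 128.4 CPM (others 80.07 to 92.63), and for the reference gene R3HDM1 at 76.29 CPM (others 55.37 to 62.49). IGHV4-39 held 372 counts there against 26 to 54 in the others. Replicate 1 was lowest for MEF2B at 237.4 CPM (others 360.4 to 416.2), VPREB3 at 22.6 CPM (others 53.19 to 66.77), TXNDC5 at 210.0 CPM (others 261.5 to 277.3) and RPL8 at 1134 CPM (others 1350 to 1444).

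Replicate 4 was highest for CCND3 at 96.5 CPM (others 66.73 to 73.44) and lowest for the methyltransferase KMT2D at 75.76 CPM (others 115 to 131.9). CIITA, the activator of HLA class II genes, was highest in replicate 5 at 130.0 CPM (others 99.96 to 109). RAB29 was highest in replicate 2 at 50.28 CPM (others 34.39 to 40.34).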

How the results depend on the processing

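Of 114 alternative values 106 stayed within the spread of the samples or within 1.5 times the count, including all 56 for single genes. Leaving out 1 of 6 samples cannot move a mean by as much as the SD. Those values for single genes and for the IgM and kappa shares could therefore not fail. With TMM factors between 0.973 and 1.02, library size alone could change little either. The 56 are thus no test of stability. Leaving out each sample in turn gave 10996 to 11069 genes detected, 4071 to 4173 with no count, 596 to 673 variable genes, IgM shares of 99.2% to 99.3% and kappa shares of 96.5% to 96.8%. The count of variable genes went from 741 to 3128 with no filter on low levels and to 280 at a mean of at least 5 CPM, so it rests on the filter. Counting all heavy chain locus reads gave an IgM share of 98.7% in place of 99.2%. Among settings chosen after seeing the data, counting IGLL5 as lambda gave a kappa share of 91.4% in place of 96.6%. On and off genes went from 54 to 25 with off as under 0.1 CPM and to 28 with on as at least 2 CPM, and to 60 to 69 when 1 sample was left out. The highest window anywhere on chromosome 18 ranked 3 among windows of 12 genes, 11 with 8 genes and 1 with 20. It need not hold the same genes at each size. Depth limits the heavy chain variable counts and genes near the floor. No paired analysis was possible because a single group was described and no comparison between groups was tested.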

Other observations

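Levels were also high in neighbouring genes elsewhere, in windows of 12 consecutive protein-coding genes with a mean of at least 1 CPM. Over 11562 windows the median of window medians was 25.1 TPM and the 99th percentile 96.6 TPM. The highest window, at 273 TPM (251 to 292 TPM across the 6 samples), lay on chromosome 1 from 150218417 to 150629612, from ANP32E to ENSA, and includes MCL1, the BCL2 relative, and APH1A, a gamma-secretase subunit. The second, at 189 TPM, lay on chromosome 19 from PLEKHJ1 to LMNB2 and includes OAZ1, the ornithine decarboxylase antizyme. The third was the chromosome 18 window from SEC11C to KDSR, at 155 TPM, which spans 4228 kb against 411 kb for the chromosome 1 window. These windows were ranked by the values given, so the levels are a description.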
